A study of Mus musculus with 8 samples.

Results

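The genes described here are 9 that act when a licensed replication origin is turned into a pair of working forks: Gins1, Gins2, Gins3 and Gins4, Cdc45, Cdc7, Dbf4, Topbp1 and Recql4. They share a known role, were chosen with earlier results of these data known, and every probe set annotated to 1 of them was taken, which gave 16 probe sets among 45037 tested and 9 genes among 18193 measured. Expression was measured on an Affymetrix mouse array in bone marrow cells sorted for Cd11b, an integrin subunit of granulocytes and monocytes, taken at 8 weeks of age from mice of mixed FVB and C57BL6 descent. The 4 experimental samples carried the genotype Mxcre;E2F1-/-2-/-3f/f, that is, both E2f1 and E2f2 deleted, E2f3 floxed, and a Cre transgene under the interferon-responsive Mx promoter. The 4 control samples were E2F1-/-2+/+3f/f, with E2f1 deleted too, E2f2 intact, E2f3 floxed and no Cre in the genotype. All mice received 5 injections of 250 µg of pIpC, an interferon inducer, and were killed 24 h after the last one, and 2.5 µg of total RNA per sample was labelled. Because the Mx promoter is active in many cell types, recombination is not limited to myeloid cells, and since no control carried Cre, its own effects and those of the E2f alleles cannot be told apart. The labels do not state that every sample is a separate animal, so p-values reflect the spread among the samples given, part of which may be technical. The comparison asks how the firing genes stand in myeloid cells with E2f2 deleted and E2f3 floxed under Mxcre, on an E2f1-null background.

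Replication origins are first licensed by loading the MCM helicase as an inactive double ring. The kinase Cdc7 with its activating subunit Dbf4 phosphorylates MCM. Cyclin-dependent kinase activity brings in Topbp1 and Recql4, which help to recruit Cdc45 and the complex of GINS subunits. Cdc45, MCM and GINS together form the active helicase that unwinds DNA at the fork. Many genes of this step are known targets of E2F transcription factors, among them Cdc45 and Cdc7.

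In the experimental samples 6 of the 9 genes rose and none fell: all 4 GINS genes, Cdc45 and Topbp1. Among all 18193 genes, each by its brightest probe set, 1.53% rose and 1.95% fell with limma at adjusted p 0.05. Of the 16 probe sets 7 rose and none fell, against 1.03% higher and 1.55% lower among all tested. Gins1 and Gins2 rose by more than 2-fold, which 0.412% of all genes did, and the other 4 rose by 1.38-fold to 1.55-fold. Cdc7, Dbf4 and Recql4 did not pass. In the 6 genes that rose, all 4 experimental arrays lay above all 4 controls at the brightest probe set, as in 5.62% of all genes, and 9 of the 16 probe sets showed this, as in 4.64% of all. The median difference of the 9 genes was 0.48 on the log2 scale, against 0.01 over all genes. By style of the sample code in the labels, the median was 0.57 within replicates 1 and 2 (digit then letter) and 0.53 within replicates 3 and 4 (letter then digit). In these bulk samples, a change in the share of a cell type and a change in RNA per cell cannot be told apart.

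**Figure D1:**
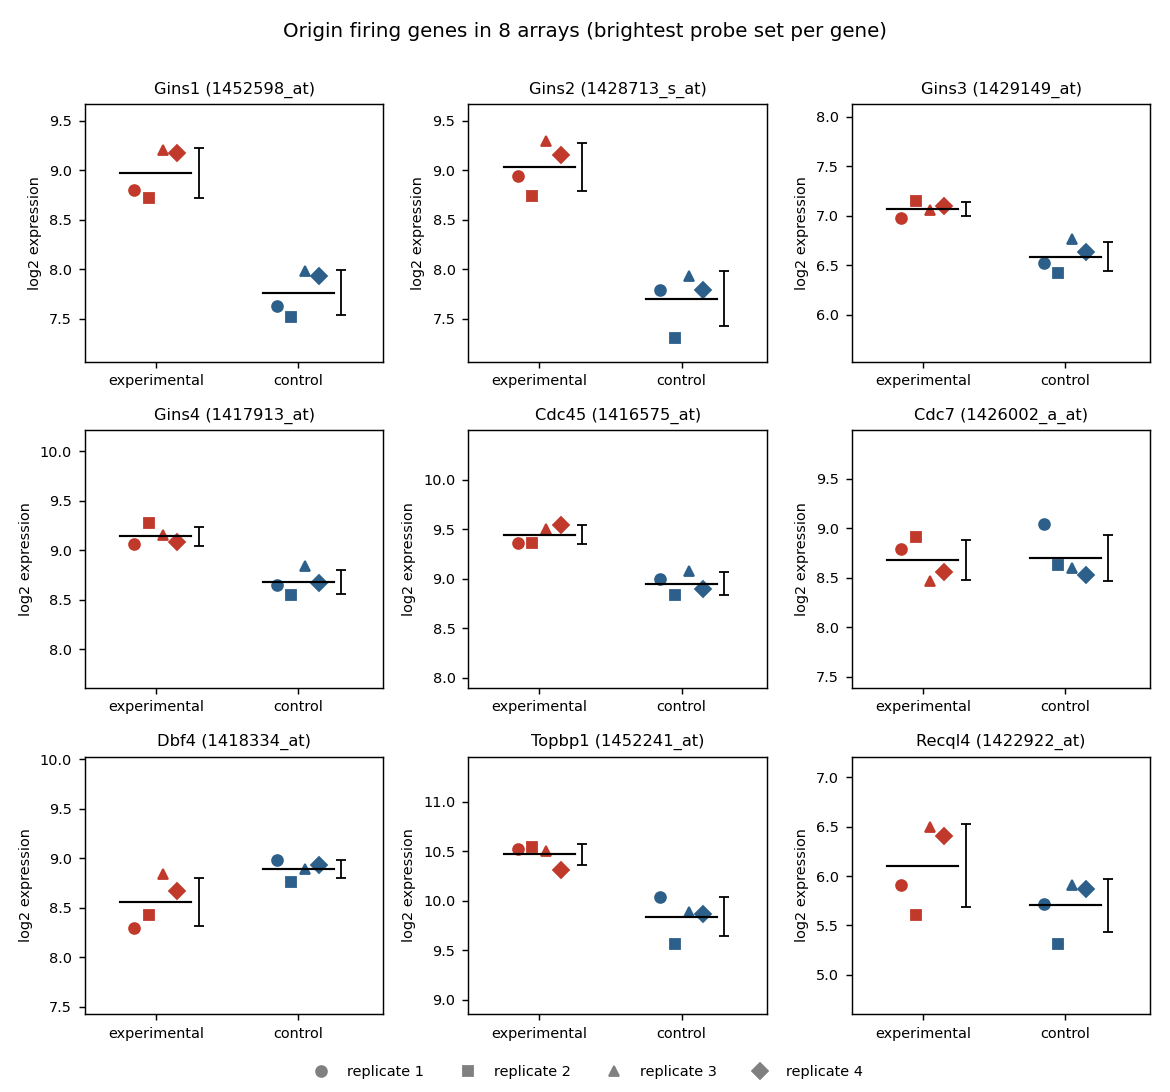
Log2 expression of the 9 origin firing genes at their brightest probe sets in the 4 experimental and 4 control arrays, with 1 panel per gene, all of the same height in log2 units. Symbols are replicates, lines are group means and bars are 1 SD. The groups do not overlap in Gins1 to Gins4, Cdc45 and Topbp1, and overlap in Cdc7, Dbf4 and Recql4.

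Gins1 and Gins2, which encode the subunits known in yeast as Psf1 and Psf2, had the largest rises. Gins1 at 1452598_at read 8.80, 8.71, 9.20 and 9.17 in experimental replicates 1 to 4, against 7.63, 7.51, 7.98 and 7.93 in the control replicates. The lowest experimental array stood above the highest control, and within each group replicates 3 and 4 lay above 1 and 2. The difference was 1.21 ± 0.15 (log2, moderated SE, n = 4 per group), or 2.31-fold (adjusted p = 0.00625), which placed Gins1 at rank 81 of 18193 genes ordered from the largest rise. Its other probe set, 1457981_x_at, read 3.63 ± 0.29 in experimental samples and 3.26 ± 0.20 in controls (SD, n = 4 each), below the array medians of 5.01 to 5.04, and did not pass (0.37 ± 0.16, adjusted p = 0.268).

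Gins2 was measured by a pair of probe sets whose annotation names the same source sequence, so they are not independent of each other. At 1428713_s_at Gins2 read 8.95, 8.74, 9.30 and 9.15 in experimental replicates 1 to 4 and 7.79, 7.30, 7.93 and 7.79 in the control replicates. At 1452881_at Gins2 read 8.41, 8.35, 8.93 and 8.75 in experimental replicates and 7.21, 6.92, 7.47 and 7.20 in controls. Both separated the groups, and control replicate 2 was the lowest array in each. The differences were 1.33 ± 0.16 (SE, 2.52-fold, adjusted p = 0.00569) and 1.41 ± 0.16 (2.65-fold, adjusted p = 0.00426). Gins2 ranked 54 among all genes, the highest of the 9. With 1 array left out at a time, Gins1 at 1452598_at and both Gins2 probe sets passed in all 8 fits, with differences of 1.12 to 1.29 for Gins1, and of 1.198 to 1.43 at 1428713_s_at and 1.301 to 1.499 at 1452881_at for Gins2.

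Gins3 and Gins4, which encode the subunits known in yeast as Psf3 and Sld5, rose less. Gins3 at 1429149_at read 6.97, 7.15, 7.06 and 7.09 in experimental replicates 1 to 4 and 6.52, 6.42, 6.76 and 6.63 in controls. The gap between the groups was narrow, with experimental replicate 1 next to control replicate 3. The difference was 0.48 ± 0.10 (SE, 1.40-fold, adjusted p = 0.0351). At 1453050_at, annotated to the same source sequence, Gins3 read 6.63 ± 0.14 in experimental samples and 6.29 ± 0.06 in controls (SD, n = 4 each), without overlap, but did not pass (0.34 ± 0.09, adjusted p = 0.0966).

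Gins4 at 1417913_at, its only probe set, read 9.07, 9.28, 9.16 and 9.08 in experimental replicates 1 to 4 and 8.65, 8.55, 8.85 and 8.67 in controls. Every experimental array was above every control, and the spread within each group was small beside the difference of 0.47 ± 0.10 (SE, 1.38-fold, adjusted p = 0.0375). The calls of Gins3 and Gins4 were not robust to the choice of arrays or of the variance model. With 1 array left out, both passed without control replicate 3 alone (adjusted p = 0.0371 to 0.111 for Gins3 and 0.0400 to 0.121 for Gins4), and neither passed with a trended, robust variance (0.0611 and 0.0528), although the differences stayed between 0.42 and 0.54.

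Subunits of a complex with 1 copy of each can be set against each other within an array. The log2 value of Gins1 less that of Gins3 was 1.90 ± 0.26 in experimental samples and 1.18 ± 0.10 in controls (SD, n = 4 each), a shift of 0.72. Gins1 less Gins4 shifted by 0.74, Gins2 less Gins3 by 0.85 and Gins2 less Gins4 by 0.86. In these 4 pairs the groups did not overlap, and each had a two-sided exact permutation p of 0.0286, the smallest that 4 against 4 arrays allow. Adjusted over the 7 pairs compared, that p became 0.05 and so did not fall below the threshold. Gins1 less Gins2 shifted by -0.12 (exact permutation p = 0.229, adjusted 0.3) and Gins3 less Gins4 by 0.02 (exact permutation p = 0.686, adjusted 0.686). The within-array values of Gins3 less Gins4 spanned -2.13 to -1.99 in experimental samples and -2.13 to -2.04 in controls. With the mean of all probe sets of a gene in place of the brightest, Gins1 less Gins2 shifted by -0.58, Gins1 less Gins3 by 0.37 and Gins1 less Gins4 by 0.32, each with an adjusted exact permutation p of 0.04, and Gins3 less Gins4 (-0.052) and Cdc7 less Dbf4 (-0.050) changed sign. Gins2 less Gins3 (0.96) and Gins2 less Gins4 (0.90) also passed at 0.04. Each pair at 0.04 again had the smallest possible exact permutation p, 0.0286. At that p the adjusted value depends only on how many of the 7 pairs reach it. With the mean, Gins1 less Gins2 reached it as well, so 0.04 is not stronger support than 0.05. The shifts of Gins1 less Gins3 and Gins1 less Gins4 were smaller than with the brightest probe sets. The Gins1 mean takes in the dim 1457981_x_at. Levels of different probe sets are not comparable with each other, so none of these values says which subunit is more abundant.

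**Figure D2:**
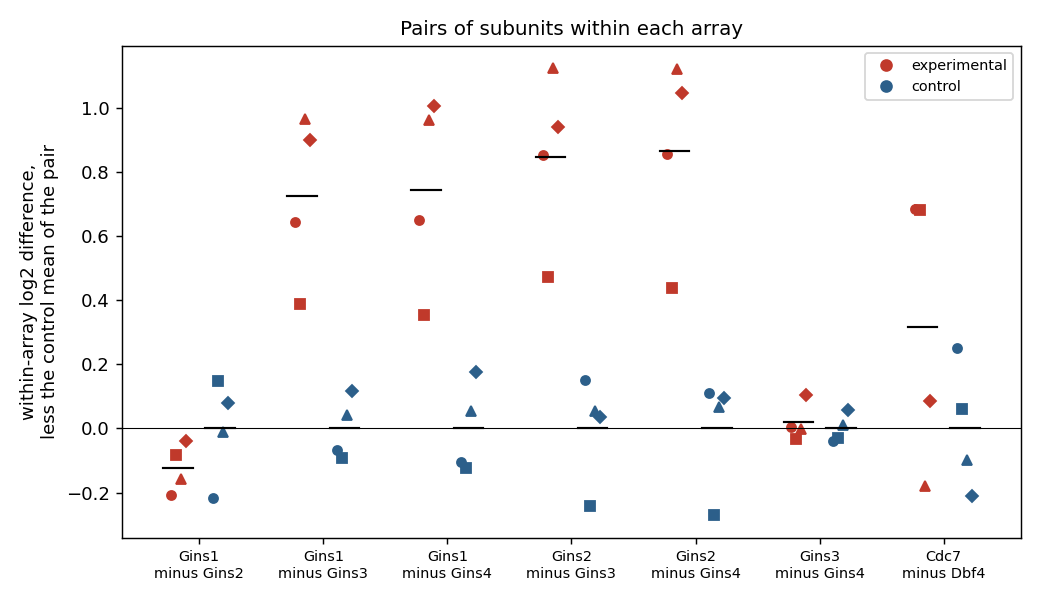
Within-array log2 differences between pairs of subunits (vertical axis, less the control mean of each pair) for the 6 GINS pairs and for Cdc7 and Dbf4. Symbols are replicates and lines are group means. The 4 pairs of Gins1 or Gins2 with Gins3 or Gins4 shifted by 0.72 to 0.86 without overlap, and Gins1 with Gins2, Gins3 with Gins4 and Cdc7 with Dbf4 overlapped.

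Cdc45, the helicase cofactor that joins MCM and GINS at the fork, rose at the brighter of its probe sets. At 1416575_at Cdc45 read 9.36, 9.36, 9.51 and 9.55 in experimental replicates 1 to 4 and 8.999, 8.83, 9.08 and 8.89 in controls. Each experimental array exceeded each control. The difference was 0.49 ± 0.09 (SE, 1.41-fold, adjusted p = 0.0290), close to those of Gins3 and Gins4. At 1457838_at Cdc45 read 6.81, 6.79, 6.48 and 6.52 in experimental replicates and 6.69, 6.45, 6.46 and 6.48 in controls. Here the groups overlapped, and the difference was 0.13 ± 0.11 (SE, adjusted p = 0.607; 95% confidence interval -0.12 to 0.38). With 1 array left out, Cdc45 at 1416575_at passed without experimental replicate 2 and without control replicate 3, and in no other such fit (adjusted p = 0.0315 to 0.0963).

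Topbp1 is a scaffold protein that helps to bring Cdc45 to MCM and also activates the checkpoint kinase ATR. At 1452241_at Topbp1 read 10.53, 10.54, 10.50 and 10.32 in experimental replicates 1 to 4 and 10.04, 9.57, 9.89 and 9.87 in controls. Experimental replicate 4 was the lowest of its group but above every control. The difference was 0.63 ± 0.12 (SE, 1.55-fold, adjusted p = 0.0239). At 1458480_at Topbp1 read 6.34, 6.49, 6.59 and 6.74 in experimental replicates and 5.99, 6.20, 5.998 and 6.18 in controls. The groups were again apart (0.45 ± 0.11, adjusted p = 0.0637), and this probe set passed with replicate number as a block (adjusted p = 0.0448). At 1452241_at the call was kept without experimental replicate 2 or 4 or control replicate 1 and lost without any other single array (adjusted p = 0.0370 to 0.0707).

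Recql4, a RecQ-family DNA helicase whose amino-terminal part is related to the yeast loading factor Sld2, has 1 probe set, 1422922_at. It read 5.91, 5.61, 6.50 and 6.41 in experimental replicates 1 to 4 and 5.72, 5.32, 5.91 and 5.87 in controls. The groups overlapped, and in both of them replicates 3 and 4 were higher than 1 and 2. The difference of 0.40 ± 0.21 (SE) did not pass (adjusted p = 0.373, and 0.0735 with the replicate block), and its 95% confidence interval was -0.07 to 0.87. Each experimental array was above the control array of the same number, though the sample titles do not state that same-numbered arrays are pairs.

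Neither gene of the kinase pair rose. Cdc7, the catalytic subunit, read 8.78, 8.91, 8.46 and 8.55 in experimental replicates 1 to 4 and 9.04, 8.62, 8.60 and 8.52 in controls at 1426002_a_at. The highest and the lowest of these 8 values lay in different groups, with control replicate 1 highest. The difference was -0.02 ± 0.14 (SE, adjusted p = 0.968), with a 95% confidence interval of -0.34 to 0.30. At 1426021_a_at Cdc7 averaged 6.72 ± 0.22 in experimental samples and 6.76 ± 0.19 in controls (SD, n = 4 each), and its difference was -0.04 ± 0.13 (SE, adjusted p = 0.911). The upper bounds of its intervals, 0.30 and 0.26, lie below the differences of all 6 genes that rose, of which the smallest was 0.47 for Gins4. Those differences have their own error, however. The 95% confidence intervals of Gins3, Gins4 and Cdc45 start at 0.26, 0.25 and 0.28, below 0.30, and Cdc7 was not tested against any of the 6.

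Dbf4, the subunit that activates Cdc7 and whose level is known to peak in S phase, read 8.30, 8.43, 8.84 and 8.66 in experimental replicates 1 to 4 and 8.98, 8.76, 8.89 and 8.93 in controls at 1418334_at. Experimental replicate 3 overlapped the controls and the other experimental arrays lay below them. The difference was -0.34 ± 0.13 (SE, adjusted p = 0.211), with -0.51 for replicates 1 and 2 alone and -0.16 for replicates 3 and 4 alone. At the dim probe set 1430545_at, Dbf4 read 4.99, 4.96, 4.26 and 3.87 in experimental replicates and 4.34, 3.90, 4.11 and 4.23 in controls. This probe set had the opposite sign (0.37 ± 0.24, adjusted p = 0.476), with differences of 0.86 within replicates 1 and 2 and -0.11 within replicates 3 and 4, and all 8 of its values were below the array medians. Cdc7 less Dbf4 within an array shifted by 0.32 (exact permutation p = 0.257, adjusted 0.3), with both groups overlapping.

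**Figure D3:**
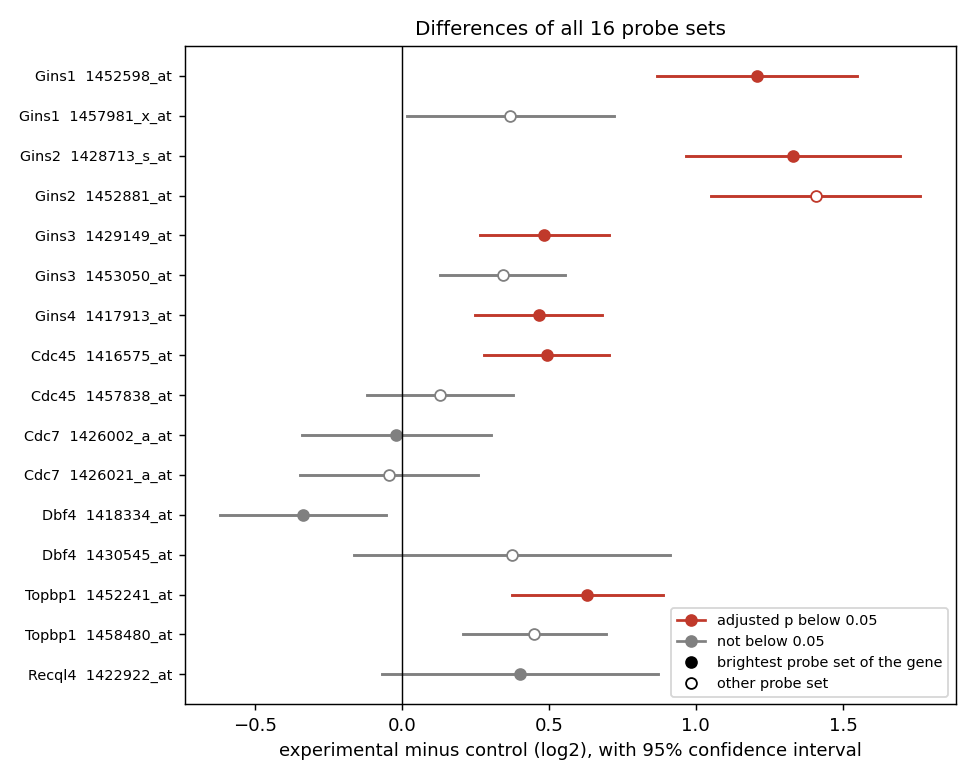
Experimental minus control difference (log2) of each of the 16 probe sets with its 95% confidence interval. Colour marks adjusted p below 0.05 and filled points mark the brightest probe set of a gene. The intervals of Gins1 at 1452598_at and of both Gins2 probe sets start at 0.87 or higher, and those of Cdc7 lie on both sides of 0.

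Promoter sequence is shown because several of these genes are known E2F targets and the differences between their groups ranged widely. RefSeq promoter windows of build GRCm38.p6, with 250 bases before and 50 after the annotated start, matched 5 of the 9 genes with 6 windows: Gins3, Cdc45, Topbp1, Dbf4 and, for 2 starts, Cdc7. The word TTCCCGC, the word TTCGCGC, the word TTGCCGC and the word TTGGCGC, forms of the core of the E2F site, were searched on both strands. At least 1 of them was found in windows of Gins3, Topbp1 and Cdc7, and none in those of Cdc45 and Dbf4. Of all 32851 windows 9.57% held one, and of all 27025 genes with a window 10.86% did. The 5 genes were not tested against these shares. Gins3 held TTCCCGC on the opposite strand, starting at position -41 relative to the annotated start. Topbp1 held TTGGCGC at -132 and TTCGCGC on the opposite strand at -129, which overlap. The window of the second Cdc7 start held TTCCCGC on the opposite strand at -226 and -35, and the first of these also lies in the overlapping window of the other start. Windows of genes that rose and of a gene that did not pass thus both held such words. A match describes letters only, and the windows without one say nothing about binding elsewhere. The 4 windows below are shown to set a gene that rose with a match (Gins3 and Topbp1), a gene that rose without one (Cdc45) and a gene that did not pass but has matches (Cdc7) side by side. They lie at chr8:95633309-95633608 on the + strand (Gins3), chr9:103305077-103305376 on the + strand (Topbp1), chr16:18811923-18812222 on the - strand (Cdc45) and chr5:106964311-106964610 on the + strand (Cdc7). They are printed 5′ to 3′ in the direction of the gene, and capitals mark the matches.
Gins3: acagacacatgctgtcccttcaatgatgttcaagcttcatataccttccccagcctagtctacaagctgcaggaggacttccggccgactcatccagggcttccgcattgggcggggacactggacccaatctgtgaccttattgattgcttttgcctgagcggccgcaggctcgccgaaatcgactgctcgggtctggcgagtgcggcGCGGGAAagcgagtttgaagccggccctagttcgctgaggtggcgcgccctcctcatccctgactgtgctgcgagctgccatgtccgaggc
Topbp1: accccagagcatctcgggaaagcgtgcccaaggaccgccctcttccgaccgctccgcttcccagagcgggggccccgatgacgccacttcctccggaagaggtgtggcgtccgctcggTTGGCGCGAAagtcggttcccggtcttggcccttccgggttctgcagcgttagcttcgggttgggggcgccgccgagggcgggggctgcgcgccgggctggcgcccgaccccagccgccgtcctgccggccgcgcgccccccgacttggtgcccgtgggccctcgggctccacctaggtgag
Cdc45: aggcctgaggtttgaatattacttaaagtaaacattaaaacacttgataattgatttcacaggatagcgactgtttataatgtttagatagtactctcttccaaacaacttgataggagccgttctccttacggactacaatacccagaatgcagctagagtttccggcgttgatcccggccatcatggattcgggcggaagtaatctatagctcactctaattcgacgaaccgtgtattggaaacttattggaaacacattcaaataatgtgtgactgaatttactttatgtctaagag
Cdc7: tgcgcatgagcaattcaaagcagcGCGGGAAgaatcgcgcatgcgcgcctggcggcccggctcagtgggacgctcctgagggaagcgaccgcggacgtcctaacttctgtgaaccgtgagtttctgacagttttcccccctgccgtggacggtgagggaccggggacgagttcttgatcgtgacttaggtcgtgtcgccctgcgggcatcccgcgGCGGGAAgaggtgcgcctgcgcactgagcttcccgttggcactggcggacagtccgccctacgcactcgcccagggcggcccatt

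Other genes of origin firing and of the first steps at the fork went both ways. Of 23 measured in this list, 6 rose and 2 fell, with a median difference of 0.30, and 9 rose with the replicate block. Timeless, a fork protection factor, read 9.59, 9.64, 9.96 and 10.01 in experimental replicates 1 to 4, against 8.19, 8.09, 8.70 and 8.72 in controls. The groups did not overlap, and its difference was the largest of the list (1.37 ± 0.17 SE, 2.59-fold, adjusted p = 0.00621). Its rise was similar in size to those of Gins1 and Gins2. Mcm10, which binds the new helicase and helps to start unwinding, rose by 0.91 ± 0.11 (adjusted p = 0.00524). The polymerase subunit genes Pole2 (0.86 ± 0.11) and Pola2 (0.79 ± 0.13), the primase gene Prim2 (0.53 ± 0.12) and the licensing inhibitor gene Gmnn (0.64 ± 0.10) rose as well. With 1 array left out, Prim2 at its brightest probe set kept its call without experimental replicate 2 alone (adjusted p = 0.0491 to 0.123). A Prim2 probe set nearly as bright rose by 0.74 ± 0.12 (SE, adjusted p = 0.0138), without overlap. The dim Prim2 probe set did not pass (-0.03 ± 0.12, adjusted p = 0.943).

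The 2 genes that fell were cyclins that pair with the kinase CDK2. Ccne2 read 6.94, 6.86, 6.71 and 6.52 in experimental replicates 1 to 4 and 8.29, 7.60, 7.56 and 7.97 in controls, a difference of -1.10 ± 0.17 (SE, adjusted p = 0.0138). Ccna2 differed by -0.53 ± 0.11 (adjusted p = 0.0403), and kept its call only without experimental replicate 3 among the fits with 1 array left out. Ticrr and Mtbp, which encode the partners that act with Topbp1 in loading Cdc45 and which were named after their values were seen, did not pass (0.09 ± 0.16, adjusted p = 0.837, and -0.25 ± 0.13, adjusted p = 0.382). Ticrr had the opposite sign without experimental replicate 4.

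The MCM genes, which encode the helicase core, were also measured. All 6 of Mcm2 to Mcm7 rose, by 0.76 for Mcm7 to 1.09 for Mcm3, with a median of 0.96. Of 8 licensing genes that load MCM, Orc1 (1.31 ± 0.11 SE), Cdt1 (1.23 ± 0.10) and Cdc6 (1.05 ± 0.09) rose and 5 did not pass, for a list median of 0.21. Of 8 genes that act with Topbp1 on the ATR side, Chek1 alone rose (0.65 ± 0.12, adjusted p = 0.0285). At this brightest probe set Chek1 passed in 3 of the 8 fits with 1 array left out. These were the fits without experimental replicate 2 or 3 or control replicate 1. A Chek1 probe set nearly as bright rose by 0.82 ± 0.15 (SE, adjusted p = 0.0219), without overlap. The dimmer Chek1 probe sets did not pass (0.19 to 0.35, adjusted p = 0.143 to 0.325). None of the 4 other RecQ helicase genes passed. Blm (0.50 ± 0.13, adjusted p = 0.0845) was the only one of them with an unadjusted p below 0.05 (0.0036) and passed with the replicate block (0.0368), and Wrn differed by -0.17 ± 0.16 (adjusted p = 0.652). The lists differ in size and were not tested against each other.

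**Figure D4:**
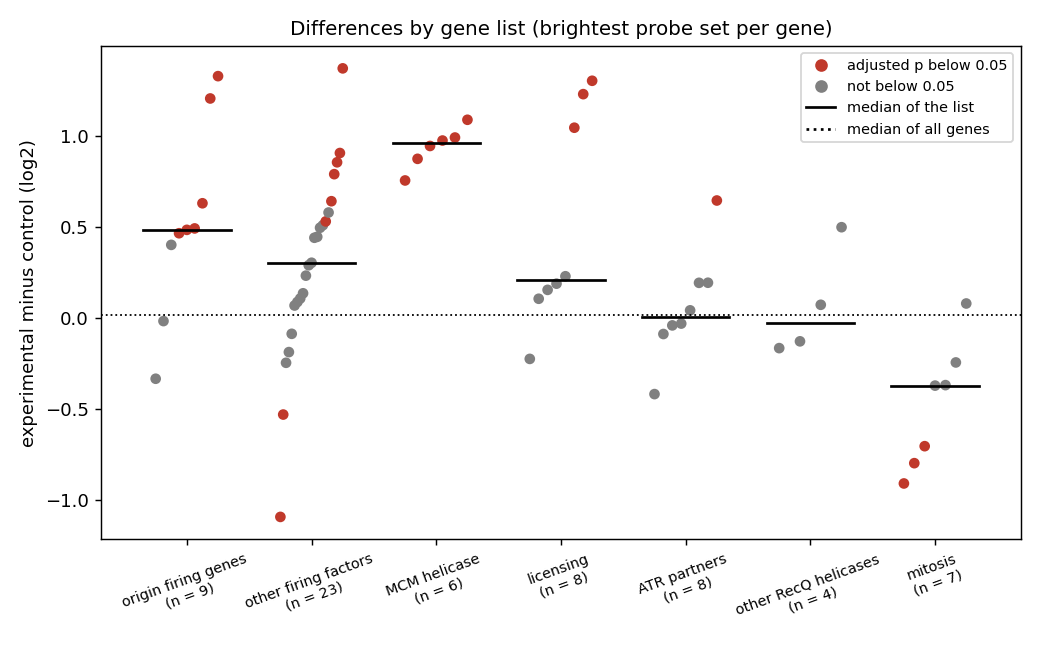
Experimental minus control difference (log2) of each gene at its brightest probe set, for the 9 origin firing genes and 6 other lists, with each list's median as a line and the median of all genes (0.01) dotted. Colour marks adjusted p below 0.05. The firing genes spread from -0.34 to 1.33, and the MCM genes from 0.76 to 1.09.

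The count of 6 firing genes that rose depended on having all 8 arrays. It was 2 without experimental replicate 1 or 3 or control replicate 2 or 4, 3 without experimental replicate 4 or control replicate 1, 4 without experimental replicate 2 and 5 without control replicate 3. Gins1 and Gins2 were among the genes called in each of these fits. Calls over all probe sets changed as well, from 1162 with all 8 arrays to 395 to 1744 without 1 array. They were fewer than 1162 in every such fit except that without experimental replicate 2 (1744). The loss of firing gene calls was not tested against this wider change. With the replicate block 6 of the 9 genes and 8 of the 16 probe sets rose, against 3.16% of all genes and 2.22% of all probe sets. All 7 probe sets that passed had a positive difference within replicates 1 and 2 and within replicates 3 and 4: Gins1 at 1452598_at differed by 1.19 and 1.23, Gins3 at 1429149_at by 0.59 and 0.38, and Topbp1 at 1452241_at by 0.73 and 0.53.

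**Figure D5:**
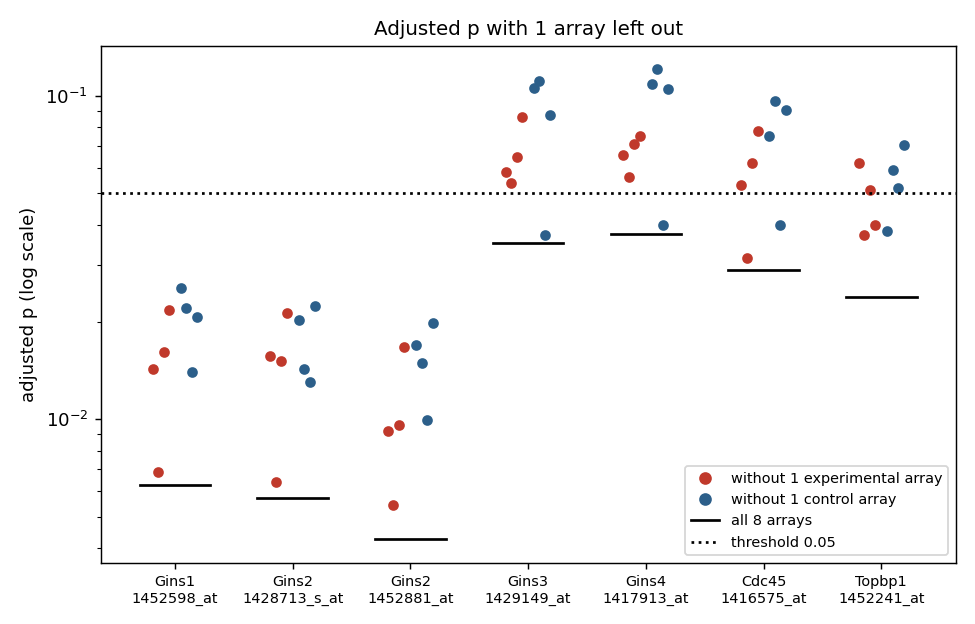
Adjusted p (log axis) of the 7 probe sets that passed with all 8 arrays (line) and in the 8 fits that each leave out 1 experimental or 1 control array (points). Gins1 and both Gins2 probe sets stay below 0.05 in every fit, and Gins3, Gins4, Cdc45 and Topbp1 lie on both sides of it.

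The genes most like the firing genes in pattern were sought among 8926 others with a mean log2 value of at least 6. The measure was Pearson's r over the 8 arrays with the mean profile of the 9 genes, which ran from 0.17 to 0.38 in experimental arrays and from -0.47 to -0.14 in controls. The closest were Hat1 (r = 0.994), Mcm6 (0.993), Pola2 (0.993), 2610507B11Rik (0.988), Slc25a17 (0.988) and Rrm1 (0.986), and the most opposed were Taldo1 and Tmem45a2 (both -0.994). The profile separates the groups, so r covers the group difference and the spread within groups together and is given as a description. Of these, Hat1 differed by 0.65 (adjusted p = 0.0152, and 0.0516 without control replicate 4) and Tmem45a2 fell by 2.13 on the log2 scale, while Slc25a17 did not pass (0.35, adjusted p = 0.103).

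Among the targeted genes, E2f2 was lower at 1455790_at (7.26 ± 0.21 in experimental samples and 7.92 ± 0.19 in controls, SD, n = 4 each; adjusted p = 0.0351) and passed without experimental replicate 2 or 4 only among the fits with 1 array left out. E2f2 at 1436434_at (-0.55 ± 0.16 SE), E2f3 (0.29 ± 0.11 at 1434564_at and 0.11 ± 0.11 at 1427462_at) and E2f1 (0.58 ± 0.23 at 1417878_at, 0.48 ± 0.24 at 1431875_a_at and 0.24 ± 0.11 at 1447840_x_at) did not pass, though E2f1 at 1417878_at did without experimental replicate 2 (adjusted p = 0.0499) and E2f1 at 1431875_a_at did in the fit blocked on code style (adjusted p = 0.0256). The position of the E2f probes against the deleted exons was not analysed here. Of the 10 measured markers of myeloid cells, the sort marker Itgam among them, 1 fell (Csf3r). The mean log2 level was 13.32 to 13.37 in experimental arrays and 13.29 to 13.52 in controls. Itgb2, Csf3r and Camp were lower without overlap, as were 1235 of all 18193 genes. Group means of S100a8, S100a9, Lyz2, Camp and Ltf were 14.27 to 14.49, near the highest values of the arrays (14.36 to 14.54). Markers of other cells were present. Of 9 B cell markers 5 fell, with mean log2 levels of 5.78 to 6.32 in experimental arrays and 6.84 to 7.70 in controls, and of 7 megakaryocyte markers 3 fell (6.08 to 6.27 and 6.72 to 7.31). None of 8 erythroid markers passed (7.89 to 9.18 and 7.86 to 8.17), with experimental replicate 1 the highest. Without that array only 2 of the 9 firing genes rose, Gins1 (1.27 at 1452598_at) and Gins2 (1.36 at 1428713_s_at). Gins3, Gins4, Cdc45 and Topbp1 did not pass in that fit, with differences of 0.52, 0.49, 0.52 and 0.61 at their brightest probe sets. The count was also 2 without experimental replicate 3, control replicate 2 or control replicate 4. Fewer probe sets were also called over the whole array without experimental replicate 1 than with all 8 arrays. None of 8 T and NK markers (7.04 to 7.55 and 6.40 to 7.34) or 7 progenitor markers (6.41 to 7.04 and 6.94 to 7.19) passed. With the replicate block, limma called 1 more marker in each of 5 lists, named here after their values were seen: Alas2 (erythroid, difference 1.10, adjusted p = 0.0342) and Nkg7 (T and NK, 1.04, 0.0343) were higher, and Gata2 (progenitor, -0.55, 0.0494), Ebf1 (B cell, -1.29, 0.0124) and Itga2b (megakaryocyte, -0.49, 0.0357) were lower. Of 7 mitosis genes 3 fell (9.44 to 9.85 and 9.95 to 10.26). Actin control probe sets, read as 3′ minus 5′ log2 signal to follow RNA degradation, gave 0.34 to 0.54 in experimental arrays and 0.27 to 0.32 in controls, without overlap. For Gapdh the same quantity was -0.16 to 0.03 in experimental arrays and -0.14 to -0.09 in controls, which overlapped. The part of these markers and ratios in the firing gene results was not tested.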

How the data were processed

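The deposited table gives log2 expression per probe set for 8 arrays, made by the authors with RMA, per the submitters' processing notes. RMA as usually run corrects background, quantile-normalizes arrays and summarises the probes of a set. The version, and whether all arrays were normalized together, are not given in the sources used here. Depth has no counterpart on arrays, and the number of arrays limits the precision. Of 45101 probe sets, 64 Affymetrix controls were left out. Genes were named from the platform annotation where it gives 1 symbol, and the brightest probe set, by its mean over the 8 arrays, stands for a gene.

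Experimental minus control differences were fitted over all probe sets by lmFit and eBayes of limma 3.58.1, run in R 4.3.3, with group as the only term, and adjusted by Benjamini-Hochberg over all 45037, with a threshold of 0.05. Subunit pairs were compared by a two-sided exact permutation test. The fit was tested on simulated data. Same-numbered experimental and control arrays deviated together from their group means (correlations of 0.20 to 0.26 across probe sets in all 4 pairs), so replicate number was also fitted as a block. Arrays of another number but the same code style correlated at 0.14 to 0.26, and 2 experimental arrays correlated more with such a control than with their own number, so number and code style are not separated by this check. The style of the sample code was handled as a batch, which holds both groups.

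The named genes are all probe sets of the 9 genes and of E2f1, E2f2 and E2f3, the genes past the threshold in 5 lists of replication and checkpoint genes (the 2 with the smallest p where none passed), and the 6 most alike and 2 most opposed in pattern. Members and lists were chosen with earlier results of these data known. The alternatives tried were quantile normalization or median centring of the arrays, array weights, a trended robust variance, either block, a mean log2 of at least 6 or above the median, the mean or the most variable probe set per gene, and 1 array left out at a time.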

Additional observations from a re-analysis of the deposited data

Results flagged for a closer look

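Values at the end of a group of 4 arrays were compared with the other 3 in 116 groups, and 8 had a gap to the rest above Dixon's 95% critical value for the group's range. Chance alone gives about 1 in 20 groups. Cdc45 at 1457838_at read 6.69 in control replicate 1, against 6.45 to 6.48 in the other controls. Cdc7 at 1426021_a_at read 6.40 in experimental replicate 4, against 6.80 to 6.85 in the others of its group. Topbp1 at 1452241_at read 10.32 in experimental replicate 4, against 10.50 to 10.54. Control replicate 2 was low in Prim2 at 1418036_at (7.83, against 8.12 to 8.17), Mcm6 at 1416251_at (10.26, against 10.71 to 10.76) and E2f3 at 1434564_at (7.43, against 7.63 to 7.67). In the same array the value of Gins2 less that of Gins4 was -1.25, against -0.91 to -0.87 in the other controls. E2f1 at 1447840_x_at read 3.93 in control replicate 3, against 3.79 to 3.81.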

How the results depend on the processing

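The number of firing genes that rose was 6 with every alternative except trended and robust variance (4) and the fits without 1 array (2 to 5), and none fell in any of them. The number of probe sets that rose was 3 to 6 without 1 array. Of the other firing factors, 1 or 2 fell without 1 array and 1 with the most variable probe set of a gene. Over all probe sets, 1162 were called, 395 to 1744 without 1 array, 2277 with the replicate block and 2582 with code style as a block. Among the firing genes' probe sets the replicate block changed the call of Topbp1 at 1458480_at and no other. Cdc7 differed by -0.095 to 0.097 at 1426002_a_at and by -0.12 to 0.064 at 1426021_a_at without 1 array, so its sign is not fixed, and Ticrr by -0.0077 to 0.22. With the mean of all probe sets of a gene, the shifts within arrays were -0.58 for Gins1 less Gins2, 0.37 for Gins1 less Gins3, 0.32 for Gins1 less Gins4, 0.96 for Gins2 less Gins3 and 0.90 for Gins2 less Gins4, each at an adjusted exact permutation p of 0.04, while Gins3 less Gins4 (-0.052) and Cdc7 less Dbf4 (-0.050) changed sign. The pairs at 0.04 had the smallest possible exact permutation p, 0.0286, as did those at 0.05 with the brightest probe sets. The step from 0.05 to 0.04 reflects only that Gins1 less Gins2 reached this p too. The mean of all probe sets takes in 1457981_x_at and 1430545_at, which lie below the array medians, and the cause was not tested. Signal limits what these dim probe sets can show.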
